A study of Mus musculus with 30 samples.

Results

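The 8 genes *Btg1*, *Btg2*, *Btg3*, *Tob1*, *Tob2*, *Zfp36*, *Zfp36l1* and *Zfp36l2*, which encode 2 families of proteins that bring messenger RNAs (mRNAs) to their decay machinery, were followed in bone marrow-derived dendritic cells (BMDCs). They were found by matching the Ensembl identifiers of the count table to these symbols, and all 8 had a row among the 43629 genes of the table. The RNA sequencing series holds 30 libraries in 6 groups of 5, from 10 numbered BMDC cultures: 5 from C57BL/6J wild-type (WT) mice and 5 from *Cacnb3*-/- mice on C57BL/6N, which lack the beta3 subunit of voltage-gated calcium channels, so that genotype and substrain cannot be told apart. Marrow was cultured for 6 days with GM-CSF (granulocyte-macrophage colony-stimulating factor). The cells were then pulsed with 500 µM adenosine triphosphate (ATP) for 30 min, except for a control set. The study calls that set unstimulated, and the labels call it vehicle. The study used sex-matched mice of both sexes, and the sex behind each culture is not given here. The sources differ on whether the early harvest came straight after the pulse or 30 min after it, and the late harvest came 24 h after the pulse. Each number was carried by a library of the set named ctrl, one named 0p5h and one named 24h. Libraries that share a number are called a culture here. That they came from the same culture was inferred from the number and is not stated in the labels.

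For the first 2 sets the library names and the treatment field of the labels disagree: libraries named ctrl carry a 30-min ATP entry and those named 0p5h carry vehicle, whereas those named 24h carry ATP in both. Sets are called here by their library names. A gene that was higher in 0p5h than in ctrl was thus higher after ATP by the names, and lower after ATP by the treatment field. Whether a culture number stands for 1 animal is not stated, so the spread between cultures may be partly technical. Libraries held between 8237393 and 32164225 counted reads, no pair of a group agreed within sampling noise, and levels are given as counts per 1000000 reads (CPM) scaled by the trimmed mean of M-values (TMM).

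Most mRNAs lose their poly(A) tail before they are degraded, and the CCR4-NOT complex removes much of it. Btg and Tob proteins bind its deadenylase subunits, and Tob proteins also bind the poly(A)-binding protein. Zfp36 proteins, of which Zfp36 is also known as tristetraprolin, carry paired CCCH zinc fingers that bind AU-rich elements in the 3′ part of mRNAs and recruit the same complex. Many of their targets encode cytokines, and p38 kinase and its substrate MK2 phosphorylate and restrain Zfp36 proteins. In dendritic cells and macrophages *Zfp36* and *Btg2* are known as early response genes.

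Of the 8 genes, 7 had a promoter window in the RefSeq table for GRCm38.p6, the build of the count table, and *Zfp36l2* had none. The 220 bases from 250 to 31 before the annotated start are shown for the 4 genes that differed between sets with the culture number as a block, since these rose from ctrl to 0p5h in every culture of both genotypes. They lie on the reverse strand at chr1:134079186-134079405 (*Btg2*), chr15:81858357-81858576 (*Tob2*), chr7:28379259-28379478 (*Zfp36*) and chr12:80113044-80113263 (*Zfp36l1*), are written 5′ to 3′, and capitals mark matches to the motifs searched.
Btg2: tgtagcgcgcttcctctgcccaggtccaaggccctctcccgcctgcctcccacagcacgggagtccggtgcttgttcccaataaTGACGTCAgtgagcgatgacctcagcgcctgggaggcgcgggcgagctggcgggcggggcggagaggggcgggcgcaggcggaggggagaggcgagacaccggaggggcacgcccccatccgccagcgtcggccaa
Tob2: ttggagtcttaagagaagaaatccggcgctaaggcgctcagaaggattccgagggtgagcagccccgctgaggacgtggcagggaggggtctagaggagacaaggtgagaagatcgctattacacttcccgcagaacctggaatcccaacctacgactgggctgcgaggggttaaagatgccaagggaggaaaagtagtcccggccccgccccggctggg
Zfp36: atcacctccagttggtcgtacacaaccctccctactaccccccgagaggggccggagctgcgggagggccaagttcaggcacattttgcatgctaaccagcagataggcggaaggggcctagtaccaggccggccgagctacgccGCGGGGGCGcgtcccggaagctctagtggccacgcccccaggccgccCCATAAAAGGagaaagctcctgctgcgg
Zfp36l1: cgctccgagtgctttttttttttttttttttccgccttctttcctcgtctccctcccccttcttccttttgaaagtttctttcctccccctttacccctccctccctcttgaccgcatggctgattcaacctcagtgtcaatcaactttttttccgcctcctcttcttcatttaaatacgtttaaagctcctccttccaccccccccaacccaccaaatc

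The search covered both strands of the whole 300-base windows, from 250 bases before to 50 after the start. Distances are from the RefSeq start, which for *Btg2* and *Zfp36* is not the start in the count table. The distance of a match from the start thus depends on the annotation there. A match of letters does not show that a factor binds. The capitals in *Btg2* are TGACGTCA, the full cyclic AMP response element, from 166 to 159 bases before its start, and 1.79% of the 32851 windows in the table held these letters. In *Zfp36* they are GCGGGGGCG, a binding motif of Egr factors that 2.91% of windows held, and a CArG box (CC, then 6 bases that are A or T, then GG), the motif of serum response factor, that 1.63% held. The shorter letters TGACG, which lie inside the full element and so also match *Btg2*, were found in *Btg1* and *Tob1* too and in 20.8% of all windows. An NF-kB motif was found in 1 of the 2 *Btg3* windows and in 8.46% of all, and GCGTGGGCG in no window of these genes and in 0.612% of all. None of the searched letters occurred in the windows of *Tob2* and *Zfp36l1*, which says nothing of the factors that act there.

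Levels differed widely among the 8 genes. Per kilobase of exon in WT ctrl libraries, the mean level was 320 ± 46.6 CPM for *Zfp36* (SD, n = 5, as for all such values) and 315 ± 25.4 for *Btg1*, an antiproliferative gene of quiescent blood cells. Next came *Btg2* at 101 ± 26.8 and *Zfp36l1* at 91.9 ± 26.4 CPM per kilobase. *Tob2* (16.4 ± 1.96), *Tob1* (15.6 ± 2.45) and *Zfp36l2* (14.2 ± 8.25) followed on the same scale. Within each of these 3 tiers neighbouring means lay within 1 SD of each other, while the gaps between tiers were larger than the SDs. *Btg3* was at 0.278 ± 0.272 CPM per kilobase, with between 0 and 44 reads in any library, and passed the filter on low counts in only 1 of the 6 comparisons between sets, so little can be said of it. In WT 0p5h libraries the order was *Zfp36* (507 ± 103), *Btg1* (335 ± 38.4), *Btg2* (323 ± 49.8) and *Zfp36l1* (138 ± 41.0 CPM per kilobase), and *Btg2* had thus reached the level of *Btg1*. The remaining family members, *Btg4* and *Zfp36l3*, were at or near 0 in all groups, with mean levels of at most 0.0223 and 0.0183 CPM.

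**Figure D1:**
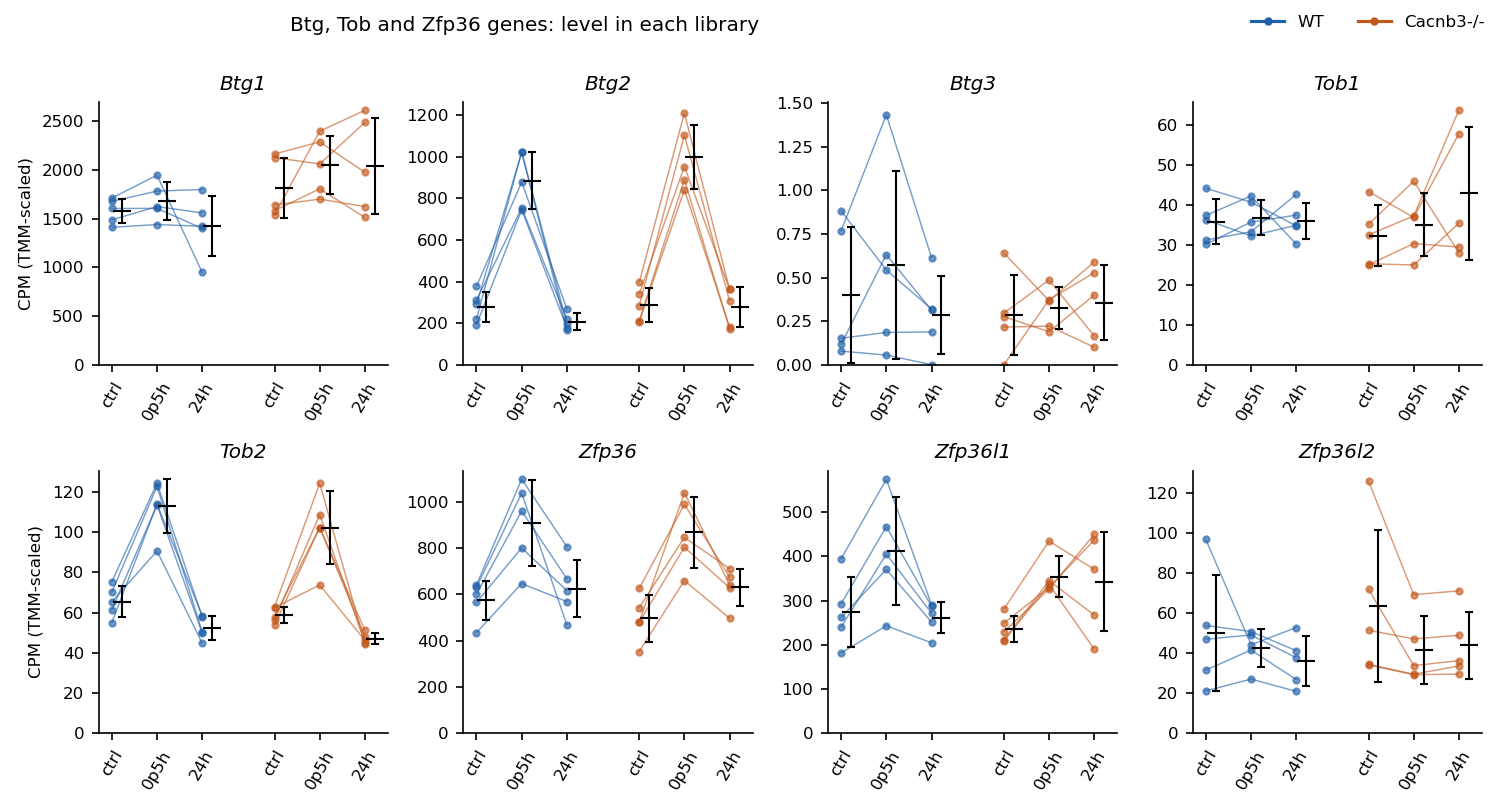
Level of each gene (y axis, TMM-scaled CPM on a linear scale from 0) in every library of the sets ctrl, 0p5h and 24h (x axis), with WT cultures in blue and Cacnb3-/- cultures in orange, lines joining libraries of the same culture, and black marks giving the mean and SD of each group (n = 5). Btg2 and Tob2 peak in 0p5h in every culture of both genotypes, Zfp36 and Zfp36l1 are higher in 0p5h than in ctrl in all 10 cultures, and Btg1 and Tob1 gave no call between these sets.

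The first comparison asked what differed within each genotype between the libraries named 0p5h and ctrl. Directions follow the library names and would read the other way for ATP under the treatment field, and in bulk RNA fewer cells of a type and less RNA per cell cannot be told apart. *Btg2* (ENSMUSG00000020423, chr1:134075170-134079120, reverse strand) changed most among the 8 genes in both genotypes. In WT cultures p974s846, p974s850, p974s855, p974s856 and p974s864 its level was 376.7, 220.1, 310.1, 290.7 and 192.6 CPM in ctrl and 879.3, 1024, 753.9, 1022 and 746.1 CPM in 0p5h. In the cultures p974s843, p974s851, p974s852, p974s853 and p974s865 of *Cacnb3*-/- mice it was 339.9, 209.3, 283.4, 395.5 and 206.7 CPM in ctrl and 953.6, 890.4, 1105, 1211 and 842.0 CPM in 0p5h. In both genotypes the lowest 0p5h library lay above the highest ctrl library. The log2 fold change was 1.68 (SE 0.185, 3.21-fold, adjusted p = 0.00594, edgeR quasi-likelihood test with Benjamini-Hochberg adjustment over all genes tested) in WT and 1.79 (SE 0.209, 3.46-fold, adjusted p = 0.00192) in *Cacnb3*-/- BMDCs.

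*Tob2* (ENSMUSG00000048546, chr15:81848270-81858326, reverse strand), whose product binds both the deadenylase and the poly(A)-binding protein, rose less. WT cultures, in the same order, had 75.25, 54.97, 65.28, 70.14 and 61.34 CPM in ctrl and 124.4, 113.9, 90.65, 122.8 and 113.6 CPM in 0p5h. *Cacnb3*-/- cultures had 62.46, 56.29, 53.68, 57.87 and 62.87 CPM in ctrl and 73.73, 108.8, 102.3, 102.3 and 124.3 CPM in 0p5h. The groups did not overlap in either genotype, although culture p974s843 changed least, by 0.237 on the log2 scale. The log2 fold change was 0.80 (SE 0.109, adjusted p = 0.0173) in WT and 0.79 (SE 0.134, adjusted p = 0.0267) in *Cacnb3*-/-, below the 2-fold change that the study's methods also required.

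These 2 of 8 genes tested passed in WT and 2 of 7 in *Cacnb3*-/-, all higher in 0p5h, against 0.252% and 0.361% of all genes tested that passed higher; at 2-fold or more only *Btg2* remained, against 0.176% and 0.282%. Without WT culture p974s850 or p974s856 the adjusted p for *Btg2* in WT was 0.128 or 0.105, and for *Tob2* it was 0.161 or 0.200, and without p974s846 or p974s864 it was 0.0832 or 0.0875 for *Tob2*. In *Cacnb3*-/- BMDCs the adjusted p for *Tob2* was 0.311, 0.147, 0.188 and 0.121 without culture p974s851, p974s852, p974s853 and p974s865.

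DESeq2 without a block passed 3 of 8 genes in WT and 4 of 8 in *Cacnb3*-/-, the 4 being *Btg2*, *Tob2*, *Zfp36* and *Zfp36l1*. Over all genes it passed 81 higher and 41 lower of 15960 in WT, and 76 and 16 of 13907 in *Cacnb3*-/-. Libraries of the same culture number deviated together, so the culture number was also entered as a block in edgeR. With it 4 genes passed in each genotype, *Btg2*, *Tob2*, *Zfp36* and *Zfp36l1*, against 3.29% of all genes that passed higher in WT and 1.62% in *Cacnb3*-/-. These 4 calls held with the block when any 1 culture was left out, with the highest adjusted p at 0.00116 in WT (*Zfp36l1*) and 0.0373 in *Cacnb3*-/- (*Tob2*).

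*Zfp36* (ENSMUSG00000044786, chr7:28376784-28379255, reverse strand), the AU-rich element binder, was at 640.8, 565.1, 600.5, 629.9 and 434.4 CPM in WT ctrl and at 1098, 800.7, 960.5, 1038 and 646.8 CPM in WT 0p5h libraries. In *Cacnb3*-/- cultures it was at 480.5, 478.6, 542.2, 625.9 and 352.5 CPM in ctrl and at 1040, 804.0, 846.2, 989.0 and 659.8 CPM in 0p5h. The groups did not overlap in either genotype, and culture p974s864 in WT and p974s865 in *Cacnb3*-/- were lowest in both sets. Without the block its log2 fold change by edgeR was 0.67 (adjusted p = 0.195) in WT and 0.79 (adjusted p = 0.189) in *Cacnb3*-/-. With the block it was 0.66 (SE 0.0523, adjusted p = 4.28e-05) and 0.80 (SE 0.0842, adjusted p = 0.000831).

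*Zfp36l1* (ENSMUSG00000021127, chr12:80107760-80113013, reverse strand), another AU-rich element binder, had 292.6, 240.0, 261.9, 394.6 and 181.4 CPM in WT ctrl and 467.4, 405.2, 370.5, 574.6 and 242.9 CPM in WT 0p5h libraries. In *Cacnb3*-/- cultures it had 248.7, 210.8, 280.7, 229.3 and 208.3 CPM in ctrl and 329.7, 344.9, 434.7, 326.0 and 336.4 CPM in 0p5h. The WT groups overlapped and the *Cacnb3*-/- groups did not, yet every culture of both genotypes was higher in 0p5h. With the block the log2 fold change was 0.59 (SE 0.0525, adjusted p = 8.98e-05) in WT and 0.58 (SE 0.0677, adjusted p = 0.00163) in *Cacnb3*-/-, and without it 0.60 (adjusted p = 0.893) and 0.58 (adjusted p = 0.208). Its exons overlap 1 gene on the opposite strand, and since the counting used no strand setting, reads of the shared part cannot be assigned to either. A processed copy, *Zfp36l1-ps*, could also share reads with it.

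Of the 3 genes whose groups did not overlap in WT (*Btg2*, *Tob2*, *Zfp36*) and the 4 in *Cacnb3*-/-, all were higher in 0p5h, against 0.741% and 0.761% of all genes tested. The other members gave no call by edgeR without the block or with it. *Btg1* (ENSMUSG00000036478, chr10:96617001-96622813, forward strand) was between 1411 and 1712 CPM in WT ctrl and between 1440 and 1947 CPM in WT 0p5h, with a log2 fold change of 0.10 (95% interval -0.14 to 0.34) in WT and 0.17 (-0.20 to 0.54) in *Cacnb3*-/-. *Tob1* (ENSMUSG00000037573, chr11:94211454-94215495, forward strand), the closest relative of *Tob2*, had a log2 fold change of 0.05 (-0.22 to 0.32) in WT and 0.11 (-0.31 to 0.52) in *Cacnb3*-/-. *Zfp36l2* (ENSMUSG00000045817, chr17:84183931-84187947, reverse strand), known from early lymphoid and blood stem cells, was the only gene tested in both genotypes with values below 0 in each, at -0.23 (-1.02 to 0.56) and -0.62 (-1.42 to 0.18). It was lower in 0p5h in all 5 *Cacnb3*-/- cultures and in 2 of 5 WT cultures, and its blocked value in *Cacnb3*-/- was -0.53 (adjusted p = 0.0975), which passed without culture p974s843 (adjusted p = 0.0201). For *Btg3* (ENSMUSG00000022863, chr16:78359860-78377192, reverse strand) the interval in WT ran from -1.19 to 2.31.

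The next comparison asked what differed between the libraries named 24h and those named 0p5h. By the library names it sets the late harvest after ATP against the early one, and by the treatment field against vehicle. All libraries named 24h carry ATP, so time after the pulse and time in culture cannot be told apart. *Btg2* and *Tob2* were lower in 24h in both genotypes and every culture. *Btg2* was at 268.4, 197.5, 220.1, 164.7 and 177.1 CPM in the WT 24h libraries and at 362.1, 173.0, 308.0, 362.8 and 180.9 CPM in the *Cacnb3*-/- ones. Its log2 fold change was -2.10 (SE 0.161, adjusted p = 0.000115) in WT and -1.84 (SE 0.242, adjusted p = 0.00342) in *Cacnb3*-/-, that is 4.29-fold and 3.57-fold lower. All 24h libraries lay below all 0p5h libraries of their genotype.

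*Tob2* was at 57.86, 58.52, 44.74, 50.22 and 49.83 CPM in WT and at 46.15, 45.00, 51.14, 48.02 and 44.50 CPM in *Cacnb3*-/- 24h libraries, again with no overlap with 0p5h. The log2 fold change was -1.11 in both genotypes (SE 0.117, adjusted p = 0.000762 in WT; SE 0.139, adjusted p = 0.00276 in *Cacnb3*-/-), and without culture p974s851 the adjusted p in *Cacnb3*-/- was 0.0529. These 2 of 7 genes tested passed in each genotype, against 0.951% and 0.636% of all genes that passed lower, and they were also the 2 genes without overlap, against 2.17% and 1.83% of all genes.

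The Zfp36 genes gave smaller values in this comparison. *Zfp36* was at 806.6, 616.2, 667.3, 467.8 and 568.5 CPM in WT and at 640.6, 628.4, 711.2, 674.5 and 497.0 CPM in *Cacnb3*-/- 24h libraries, lower than 0p5h in all 10 cultures but with overlapping groups. With the culture block its log2 fold change was -0.53 (SE 0.126, adjusted p = 0.0274) in WT and -0.44 (SE 0.0907, adjusted p = 0.00563) in *Cacnb3*-/-; without the block the adjusted p was 0.248 and 0.213, and without culture p974s846 or p974s855 the blocked value in WT was 0.0851 or 0.0867. *Zfp36l1* was at 287.0, 271.5, 251.4, 290.8 and 204.4 CPM in WT 24h libraries, lower than 0p5h in each culture, with a blocked log2 fold change of -0.61 (SE 0.0997, adjusted p = 0.00542; 0.199 without the block). In *Cacnb3*-/- 24h libraries it was at 437.3, 267.2, 370.7, 450.2 and 190.1 CPM, higher than 0p5h in 2 cultures and lower in 3, with a blocked value of -0.10 (adjusted p = 0.680). With the block 4 of 7 genes thus passed lower in WT and 3 of 7 in *Cacnb3*-/-, against 6.78% and 14.4% of all genes.

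The genes *Btg1*, *Tob1* and *Zfp36l2* did not pass in either genotype. Their log2 fold changes without the block lay between -0.24 (*Zfp36l2*) and -0.030 (*Tob1*) in WT and between 0.0082 (*Btg1*) and 0.30 (*Tob1*) in *Cacnb3*-/-. *Tob1* passed with the block once *Cacnb3*-/- culture p974s865 was left out (0.49, adjusted p = 0.00358), and *Zfp36l2* once WT culture p974s864 was left out (-0.42, adjusted p = 0.0330).

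Between 24h and ctrl no member passed in either genotype without the block by edgeR, DESeq2 or limma-voom. By the treatment field this comparison sets the late harvest against the 30-min ATP libraries rather than against controls. At an unadjusted p under 0.05 edgeR gave 2 genes in each genotype, *Btg2* and *Tob2* in WT, and *Tob2* and *Zfp36l1* in *Cacnb3*-/-, DESeq2 gave 2 in WT and 3 in *Cacnb3*-/-, and limma-voom gave 1 and 2. Over all genes edgeR gave 1106 of 13176 in WT and 1343 of 12452 in *Cacnb3*-/- at that unadjusted p. After adjustment it passed 0% higher and 0.0152% lower in WT, and 0% in *Cacnb3*-/- in either direction, while DESeq2 passed 44 genes higher and 60 lower of 15186 in WT and 52 and 14 of 14420 in *Cacnb3*-/-. In WT, where the culture numbers paired these sets, edgeR with the block again passed no member, against 2.41% of all genes higher and 3.64% lower. *Btg2* came closest (adjusted p = 0.0610), and it passed with the block by DESeq2 (-0.41, adjusted p = 0.0115) and, together with *Tob2*, with all 30 libraries in the blocked fit (adjusted p = 0.0447 and 0.0379). With the block edgeR gave 3 members, *Btg2*, *Tob2* and *Zfp36l2*, and 2884 of all genes at an unadjusted p under 0.05 in WT. For *Cacnb3*-/- the numbers did not meet the criterion for pairing these sets, and the blocked counts stand with the alternatives. *Tob2* was 0.31 lower on the log2 scale in WT (95% interval -0.56 to -0.071) and 0.32 lower in *Cacnb3*-/- (-0.54 to -0.11), where its groups did not overlap, against 0.554% of all genes that were lower without overlap. *Btg2* was at -0.43 (-0.84 to -0.0076) in WT and at -0.050 (-0.62 to 0.53) in *Cacnb3*-/-. *Zfp36l1* was at -0.062 (-0.47 to 0.34) in WT and at 0.54 (0.056 to 1.03) in *Cacnb3*-/-.

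**Figure D2:**
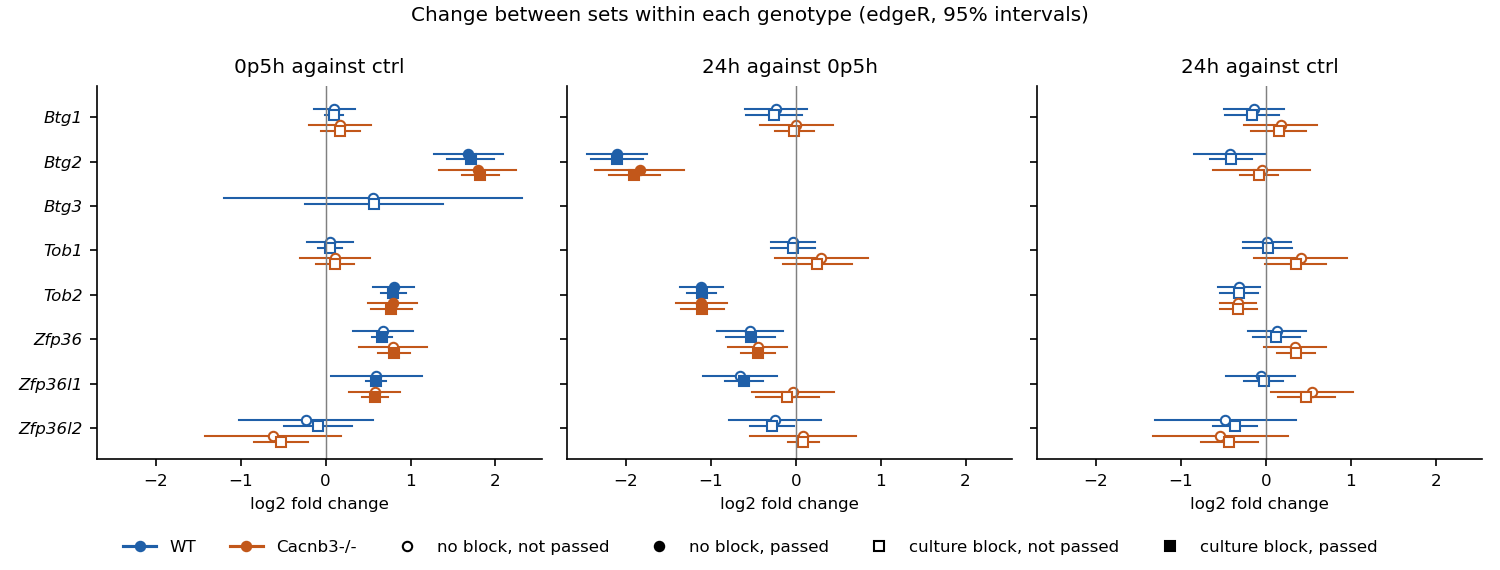
Log2 fold change of each gene (x axis) with its 95% interval for the 3 comparisons between sets (panels), in WT (blue) and Cacnb3-/- (orange), without a block (circles) and with the culture number as a block (squares); filled symbols passed at an adjusted p under 0.05. Btg2 and Tob2 are filled in the first 2 panels in both genotypes, Zfp36 and Zfp36l1 only as squares there, with Zfp36l1 open in Cacnb3-/- in the second panel, and no symbol is filled in the third.

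The study also compared *Cacnb3*-/- with WT BMDCs in each set. No member passed in any set by edgeR, DESeq2 or limma-voom, and edgeR passed 0% of all genes in either direction. Limma-voom also passed 0 genes, whereas DESeq2 passed 63 higher and 184 lower of 14328 in ctrl, 63 and 68 of 14115 in 0p5h, and 1689 and 1688 of 12797 in 24h. The genotypes overlapped for every member in each set, whereas 0.653% of all genes were higher and 1.27% lower in *Cacnb3*-/- without overlap in ctrl, 0.921% and 1.13% in 0p5h, and 2.72% and 3.79% in 24h. At an unadjusted p under 0.05 edgeR and limma-voom gave 0 members in ctrl and 0p5h and 1, *Btg1*, in 24h, and DESeq2 gave *Btg1* in 0p5h as well. Over all genes edgeR gave 2161 of 13022, 2103 of 12806 and 4877 of 12706 at that unadjusted p in ctrl, 0p5h and 24h. In 0p5h the log2 difference (*Cacnb3*-/- minus WT) was 0.19 for *Btg2* (95% interval -0.14 to 0.53), -0.13 for *Tob2* (-0.44 to 0.18), -0.050 for *Zfp36* (-0.44 to 0.34) and -0.20 for *Zfp36l1* (-0.64 to 0.23). The widest of these intervals reached -0.64 (*Zfp36l1*), so that like levels in the genotypes are not shown.

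*Btg1* had the largest genotype difference in 24h: it was at 1800, 1400, 1559, 948.3 and 1422 CPM in WT and at 2614, 1625, 1977, 2489 and 1513 CPM in *Cacnb3*-/-. The WT library of culture p974s856 was the lowest of the 10, and the groups overlapped. The log2 difference was 0.54 (95% interval 0.073 to 0.997, adjusted p = 0.0903), and *Btg1* passed when all 30 libraries were fitted together (adjusted p = 0.0208). Without *Cacnb3*-/- culture p974s865, both *Btg1* (0.63, adjusted p = 0.0350) and *Zfp36l1* (0.57, adjusted p = 0.0262) passed. No share of all genes is given here for these alternative fits, so their calls cannot be set against one. In the main edgeR fit of this set 4877 of 12706 genes had an unadjusted p under 0.05. The smallest adjusted p over all genes was 0.0515 there, close to the threshold, so such calls need not be particular to these genes. The summed level of 8 dendritic cell markers spanned 16070 to 28690 CPM in this set for WT, against 11330 to 20830 CPM for *Cacnb3*-/-. In ctrl it spanned 20310 to 29900 against 12330 to 23740 CPM, and in 0p5h 21090 to 30110 against 15160 to 27820 CPM. *Cd74* had the highest median of the 8 markers, at 12840 CPM over all libraries. The part of this sum in these differences was not tested.

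Whether a change between sets differed between the genotypes was tested by interaction terms, and no member passed in any of the 3, with the block or without it, by edgeR. DESeq2 and limma-voom also gave 0, and at an unadjusted p under 0.05 there were 0 members without the block by any of these tools, and 0, 2 and 2 by edgeR with it. Over all genes edgeR with the block gave 312 of 13465, 2639 of 13536 and 3817 of 13424 at that unadjusted p for 0p5h against ctrl, 24h against ctrl and 24h against 0p5h. For 24h against ctrl all blocked fits enter culture numbers that did not meet the criterion for pairing these sets in *Cacnb3*-/-. From ctrl to 0p5h the log2 difference between the changes (*Cacnb3*-/- minus WT) was 0.12 for *Btg2* (95% interval -0.46 to 0.70), 0.0016 for *Tob2* (-0.36 to 0.36), 0.13 for *Zfp36* (-0.38 to 0.64) and -0.0089 for *Zfp36l1* (-0.60 to 0.58). From 0p5h to 24h it was 0.62 for *Zfp36l1* (-0.035 to 1.27, adjusted p = 0.680), and 0.51 with the block (0.043 to 0.97, adjusted p = 0.148). Of all genes, edgeR passed 0% in each interaction without the block, and with it 0%, 0.118% and 0.00745% higher and 0% lower in the same order. DESeq2 with the block passed 0 genes, then 66 higher and 5 lower of 12670, and then 472 higher and 396 lower of 9005, with no member among them. Without *Cacnb3*-/- culture p974s865 the blocked edgeR value for *Zfp36l1* from 0p5h to 24h was 0.70 (adjusted p = 0.0246). Among the fits run, the *Zfp36l1* interaction passed only with the block and without that culture.

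**Figure D3:**
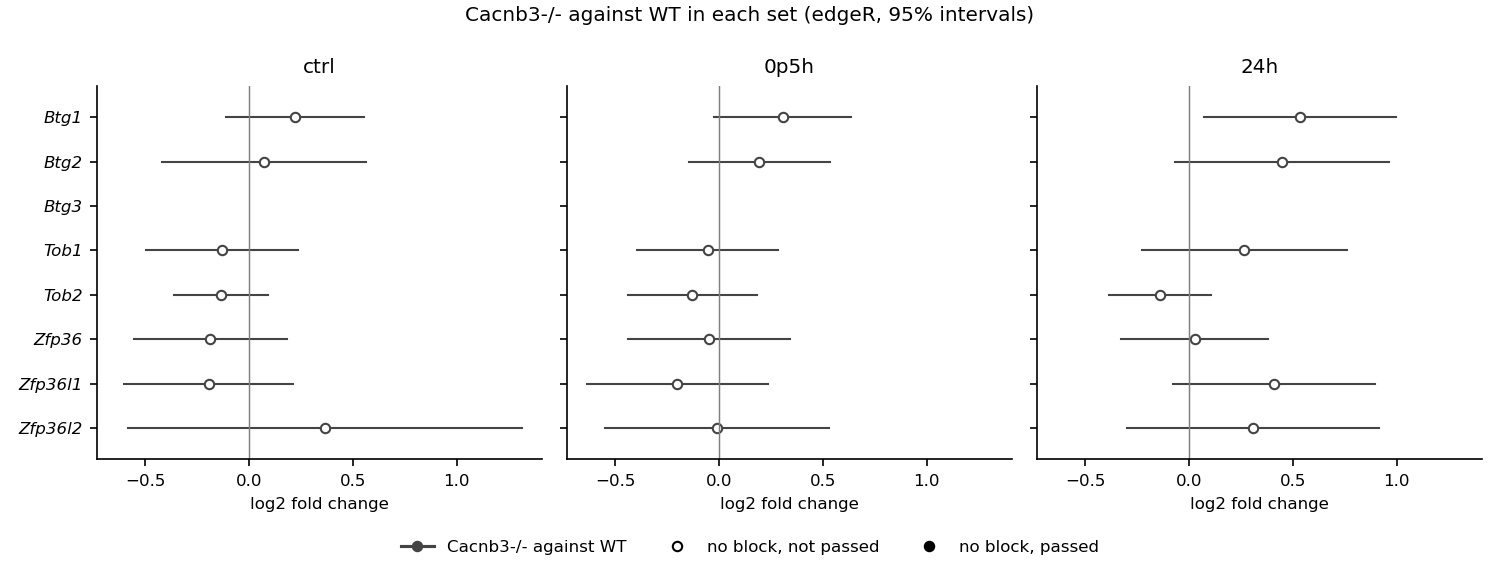
Log2 difference between Cacnb3-/- and WT BMDCs (x axis, positive where Cacnb3-/- was higher) of each gene in the sets ctrl, 0p5h and 24h (panels), with 95% intervals from edgeR; open circles did not pass at an adjusted p under 0.05. All symbols are open, and the interval of Btg1 in 24h is the only one that lies wholly above 0.

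The 8 genes were also compared by their pattern over the 30 libraries, as Pearson's r of log2 CPM. This is a description: libraries of a culture and of a set are not independent, and the sets alone can give high values. *Btg2* was most like *Tob2* (r = 0.88) and *Zfp36* (0.79) among the members, *Zfp36* and *Zfp36l1* had an r of 0.74, and *Zfp36l2* had negative values with *Zfp36* (-0.55) and *Zfp36l1* (-0.38). The paralogs *Tob1* and *Tob2* had an r of 0.028, and *Btg1* and *Btg2* of 0.46. Among the 13755 genes that passed the filter over all libraries, the 3 most like *Btg2* were *Osm* (r = 0.96), a cytokine of the interleukin-6 family, *Apold1* (0.96) and *Rasd1* (0.94). For *Tob2* they were the transcription factor *Ets2* (0.95), the kinase *Sik1* (0.94) and the histone demethylase *Kdm6b* (0.92). *Zfp36* was closest to *Gprc5a* (0.87), the cytokine *Il6* (0.85) and the MAP kinase phosphatase *Dusp1* (0.85), and *Zfp36l1* to *Bhlhe40* (0.84), *Pim1* (0.83) and *Dusp5* (0.82).

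The remaining genes had other neighbours. *Zfp36l2* was closest to the TGF-beta receptor gene *Tgfbr2* (0.91), *Gna15* (0.89) and the lysozyme gene *Lyz2* (0.89), and *Btg1* to *Ugcg* (0.94), *Csta2* (0.93) and *Eid1* (0.92). For *Tob1* the highest values were 0.75 (*Sar1b* and *Mfsd14b*) and 0.73 (*Cpne3*), and for *Btg3* 0.75 (*Metap1*), 0.73 (*Hid1*) and 0.72 (*Sp140l1*), where few reads stood behind the member.

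The machinery that these proteins recruit was followed through fixed lists: 11 genes of CCR4-NOT, 7 of other deadenylases and poly(A) binding, 10 of decapping and 5′ decay, 9 encoding other RNA-binding regulators, and 5 of 6 p38 and MK2 kinases that could be tested. From ctrl to 0p5h none of these 42 genes passed in either genotype by edgeR, with 2 in WT and 0 in *Cacnb3*-/- at an unadjusted p under 0.05. DESeq2, which tested 43 of the listed genes, passed 1 in WT, *Zc3h12a* (0.54, SE 0.127, adjusted p = 0.00369), and 0 in *Cacnb3*-/-, with 2 and 0 at an unadjusted p under 0.05. Their median log2 fold change was 0.015 in WT and 0.019 in *Cacnb3*-/-, beside 0.0075 and -0.0087 over all genes tested. With the block, 2 passed higher in WT, *Zc3h12a*, which encodes an RNase of stem-loop mRNAs also called regnase-1 (0.55, SE 0.0505, adjusted p = 0.000116), and its relative *Zc3h12c* (0.51, SE 0.0860, adjusted p = 0.00595), beside 3.29% of all genes, and 0 in *Cacnb3*-/-, where *Zc3h12a* had CPMs of 30.3 ± 6.38 in ctrl and 37.6 ± 8.68 in 0p5h. *Zc3h12c* is named after its values were seen.

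From 0p5h to 24h *Zc3h12a* was the only gene of the 42 that passed without the block by edgeR, at -0.55 (SE 0.106, adjusted p = 0.0319) in WT and -0.80 (SE 0.159, adjusted p = 0.0377) in *Cacnb3*-/-. DESeq2 passed it in both genotypes, and in *Cacnb3*-/- also *Edc4*, which encodes a decapping scaffold and is named after its values were seen (-0.80, SE 0.226, adjusted p = 0.0188). With the block 2 of 42 passed in WT by edgeR, both lower, beside 6.78% of all genes. In *Cacnb3*-/- BMDCs 6 passed higher and 11 lower, beside 14.2% and 14.4% of all genes. The 11 included 4 of the 5 p38 and MK2 kinase genes.

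Transcripts known as targets of Zfp36 proteins were spread more widely. Of 13 listed, 11 could be tested, and between ctrl and 0p5h they had a median log2 fold change of 1.01 in WT and 1.41 in *Cacnb3*-/-. Without the block *Cxcl2*, a neutrophil chemokine gene, passed in WT by edgeR (1.01, SE 0.139, adjusted p = 0.0173), beside 0.252% of all genes higher. In *Cacnb3*-/-, *Ptgs2*, which encodes the prostaglandin synthase COX-2 (4.24, SE 0.465, adjusted p = 0.00143), and *Il1b* (2.17, SE 0.344, adjusted p = 0.0176) passed, beside 0.361%. DESeq2 without the block passed 2 of 13 higher and 1 lower in WT, and 4 and 1 in *Cacnb3*-/-. Its counts over all genes were 81 and 41 of 15960, and 76 and 16 of 13907. With the block *Cxcl2*, *Ptgs2* and *Il1b* each passed higher in both genotypes by edgeR. With the block 8 of 11 passed higher and 1 lower in each genotype, beside 3.29% of all genes higher and 2.67% lower in WT, and 1.62% and 0.729% in *Cacnb3*-/-. The lower one was *Tnf*, named here after its values were seen, at 28.5 ± 5.62 CPM in WT ctrl and 8.64 ± 3.995 CPM in WT 0p5h libraries (blocked log2 fold change -1.74, SE 0.163, adjusted p = 0.000131), and at -1.54 (SE 0.210, adjusted p = 0.00387) in *Cacnb3*-/-.

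From 0p5h to 24h *Ptgs2* passed lower in WT by edgeR without the block (-3.97, SE 0.719, adjusted p = 0.0227), beside 0.951% of all genes. In *Cacnb3*-/-, *Il1b* (-1.68, SE 0.322, adjusted p = 0.0353) and the growth factor gene *Vegfa* (-1.27, SE 0.22, adjusted p = 0.0210) passed lower, beside 0.636%. There *Tnf* passed higher (1.92, SE 0.355, adjusted p = 0.0296), beside 0.244%. DESeq2 without the block passed 1 of 13 higher and 3 lower in WT, and 1 and 4 in *Cacnb3*-/-. Its counts over all genes were 125 and 260 of 14895, and 220 and 235 of 13964. With the block 1 of 11 passed higher and 5 lower in each genotype by edgeR. Beside these stood 4.52% of all genes higher and 6.78% lower in WT, and 14.2% and 14.4% in *Cacnb3*-/-. *Tnf* was the higher one in both genotypes, and *Ptgs2*, *Il1b* and *Vegfa* were among the lower ones in both. mRNA levels alone do not show decay rates or the activity of the proteins, and neither was measured here.

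**Figure D4:**
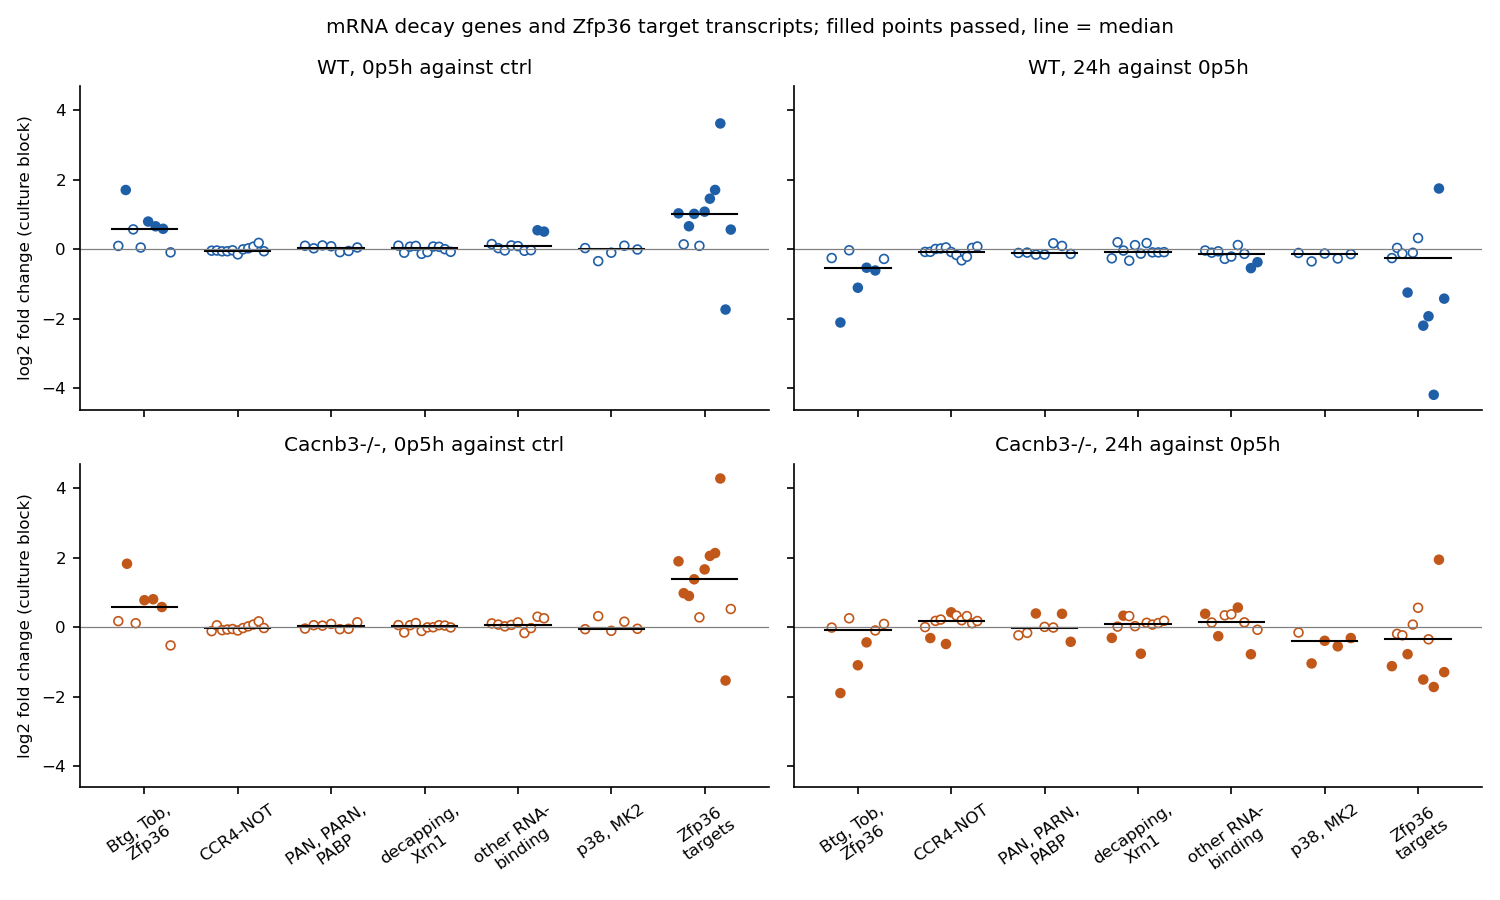
Log2 fold change (y axis, fits with the culture number as a block) of the members that could be tested and of the genes of 6 lists (x axis), in WT (blue, upper panels) and Cacnb3-/- (orange, lower panels), for 0p5h against ctrl (left) and 24h against 0p5h (right); each point is a gene, filled where it passed at an adjusted p under 0.05, and black lines are medians. The CCR4-NOT, poly(A), decapping and kinase lists lie close to 0 from ctrl to 0p5h, while most of the Zfp36 targets lie above 0 there and below 0 from 0p5h to 24h.

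The labelled cell type was checked by its markers. All 8 dendritic cell markers had reads in every library, with a summed level between 11330 and 30110 CPM, and all 6 macrophage markers did too, with sums between 442 and 3766 CPM. B and T cell marker sums stayed at or below 5.05 and 1.42 CPM. Macrophage sums moved with the sets: their ranges were 1103 to 1967, 1330 to 3052 and 567 to 1443 CPM in WT ctrl, 0p5h and 24h, and 526 to 2495, 616 to 3766 and 442 to 1277 CPM in *Cacnb3*-/-. Granulocyte sums ranged from 130 to 689 CPM and mast cell and basophil sums from 59.7 to 185 CPM. Nearly all of the latter was *Kit*, at 55.9 to 180.4 CPM with a median of 119. The other markers of that list had medians of 1.26 (*Cpa3*), 0.818 (*Mcpt8*), 0.180 (*Ms4a2*) and 0.0548 CPM (*Fcer1a*). The granulocyte gene *Elane* had 0 reads in 3 libraries and the mast cell gene *Fcer1a* in 7. The part of these shifts in the results was not tested. *Cacnb3* itself was counted at 1035 to 2143 CPM in the 15 WT libraries and at 573 to 1331 CPM in the 15 *Cacnb3*-/- libraries. Counts were summed over all its exons, and which exons the knockout lacks is not given in the sources used here, so the gene's count checks the labels only in part.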

How the data were processed

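RNA of 30 BMDC libraries was sequenced. The authors deposited raw counts per gene: per the labels and file headers, reads were aligned with STAR 2.4 and counted over exons of Ensembl release 79 (GRCm38) with featureCounts 1.5.1, with no strand, pair or multi-mapping option. The methods name GRCm39 and the labels mm10, and gene positions are those of the count table. Columns were assigned to samples by their titles.

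Counts were tested with edgeR 4.0.16 (R 4.3.3): TMM scaling, filterByExpr, a quasi-likelihood test over 10 libraries (20 for interactions) and Benjamini-Hochberg adjustment over all genes tested. A gene passed at an adjusted p under 0.05, and the fold of 2 used by the study was applied as an alternative. Log CPM for correlations used a prior count of 2, and the change of a culture was computed after adding 0.5 CPM. The alternatives were limma 3.58.1 (voom), DESeq2 1.42.0, other size factors, no filter, all 30 libraries in one fit, removal of a GC trend, each culture left out, and the culture number as a block. The lane as a covariate, DESeq2 with the block, and the block with each culture left out were added after seeing the data. The edgeR fits were tested on simulated data first.

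Culture numbers come from the labels. Over 13755 genes, deviations of libraries of the same number from their group means had r between 0.419 and 0.846 in WT, between 0.317 and 0.843 (ctrl and 0p5h) and between 0.43 and 0.672 (0p5h and 24h) in *Cacnb3*-/-, so the number was taken to pair these libraries. Between *Cacnb3*-/- ctrl and 24h it was above 0.1 in 4 of 5 pairs (lowest 0.0746), and no pairing was assumed. Blocked fits that hold both of these sets, among them the interaction of 24h against ctrl, still entered the numbers. P-values measure the spread between these libraries only.

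The members, the lists and the rule for named genes (the 8 members, *Cacnb3*, the 3 genes most like each member, and up to 4 genes of each list that passed, by lowest adjusted p) were chosen with earlier results of these data known. Promoter windows came from RefSeq for GRCm38.p6. Library totals of 8237393 to 32164225 reads set the counting precision, which limits *Btg3* most.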

Additional observations from a re-analysis of the deposited data

Results flagged for a closer look

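Of 48 groups of 5 libraries (8 genes in 6 groups), 1 held a library far from the others. *Zfp36l1* was at 434.7 CPM in *Cacnb3*-/- culture p974s852 of the 0p5h set, whereas the other libraries of that group lay between 326.0 and 344.9 CPM. Chance alone flags about 1 group in 20 in this way. Without culture p974s852 the blocked log2 fold change of *Zfp36l1* from ctrl to 0p5h in *Cacnb3*-/- was 0.57 (edgeR, adjusted p = 0.0168).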

How the results depend on the processing

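Of 1986 values of single genes under the alternatives, 1883 kept their side of the threshold, 12 lost and 90 gained a call, and 1 reversed. The 1883 include 145 values whose sign changed where neither fit gave a call. The reversed value was *Btg1* from 0p5h to 24h in *Cacnb3*-/-, at -0.24 (edgeR, adjusted p = 0.0340) with the block and the GC trend removed. Of 282 counts of members that passed, 231 stayed within the limit of 1.5 times and 51 did not. At 2-fold or more, 1 member passed from ctrl to 0p5h in each genotype. With the replicate block 4 members passed from ctrl to 0p5h in WT and 4 in *Cacnb3*-/-, and 4 from 0p5h to 24h in WT. With the block and the GC trend removed these counts were 4, 5 and 4, with 5 from 0p5h to 24h and 1 from ctrl to 24h in *Cacnb3*-/-. With the block and all 30 libraries they were 4, 4 and 4, with 2 (WT) and 4 (*Cacnb3*-/-) from ctrl to 24h (the 4 being *Tob2*, *Zfp36*, *Zfp36l1* and *Zfp36l2*). DESeq2 with the block gave 4, 5 and 4, with 1 (WT) and 2 (*Cacnb3*-/-) from ctrl to 24h, the 2 being *Zfp36* and *Zfp36l1*. Over all genes it passed 413 higher and 214 lower of 12542, 271 and 82 of 13911, and 563 and 973 of 12896. From ctrl to 24h these counts were 433 and 667 of 12711 in WT and 870 and 737 of 12473 in *Cacnb3*-/-. For the GC and 30-library fits no share of all genes is given here, so their member counts cannot be set against one. Without a block, DESeq2 gave 4 and the lane as a covariate 1 from ctrl to 0p5h in *Cacnb3*-/-, and all 30 libraries in one fit gave 1 between genotypes in 24h. The block with edgeR changed no other count of calls by over 1.5 times, and between ctrl and 24h in *Cacnb3*-/-, where 4 of 5 libraries correlated best with their own number, 0 members passed with it. There 540 of 12452 genes passed higher and 523 lower, and 4 members and 3876 genes had an unadjusted p under 0.05. The cause of these changes was not tested.

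Leaving out 1 culture gave 0 to 2 members from ctrl to 0p5h in WT and 1 to 2 in *Cacnb3*-/- (with the block 4 to 4 and 4 to 5), 2 to 2 and 1 to 2 from 0p5h to 24h (with the block 3 to 5 and 3 to 4), and 0 from ctrl to 24h (with the block 0 to 1 and 0 to 2). Between genotypes it gave 0 to 2 in 24h and 0 in the other sets, and for interactions 0 without the block and 0 to 1 with it, the 1 being *Zfp36l1* from 0p5h to 24h. Fewer libraries were fitted in each of these, and no share of all genes is given here for them. *Btg3*, with at most 44 reads in a library, was not measurable at this depth.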
